A study of Mus musculus with 6 samples.

Results

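The genes of cholesterol synthesis and of its control by SREBP2 were followed in mouse bone marrow-derived macrophages, which are macrophages grown in culture from bone marrow. The members are 27 genes chosen by symbol for their place in the pathway, of 54532 genes in the count table, and all 27 were found, had reads in every library and were tested. They were chosen with earlier results of these data known, so no test of the list was made. XWT macrophages came from Xbp1FL/FL mice, whose Xbp1 alleles are flanked by recombination sites, and XKO macrophages from Xbp1ΔMf mice, which by their label lack Xbp1 in macrophages; the labels do not name the driver of the deletion. All mice were C57BL/6 of 32 to 34 weeks. Cells of either genotype were LPS-primed and then spent 48 h in conditioned medium from primary hepatocytes of wild-type mice before RNA was taken, and no unexposed group was analysed here. Each group has 3 libraries, and since nothing says that they came from separate animals or cultures, p-values measure the spread between these libraries, which may be technical.

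Cells build cholesterol from acetyl-CoA through mevalonate, isoprenyl diphosphates, squalene and lanosterol. The pathway is controlled by SREBP2, a transcription factor made as a membrane protein of the endoplasmic reticulum. When sterols are scarce the escort protein SCAP carries SREBP2 to the Golgi, where it is cut and released, and when sterols are plentiful INSIG proteins hold SCAP back. Most enzymes of the pathway, and Insig1, are known SREBP2 targets. XBP1, the transcription factor whose gene is targeted in XKO, acts in the unfolded protein response of the same organelle and is known from liver as a regulator of lipid synthesis genes. The comparison of XKO with XWT asks how the transcripts of the pathway differ when macrophages with Xbp1 targeted meet hepatocyte products.

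The libraries held 28354866 to 30891729 counts. Xbp1 itself (ENSMUSG00000020484, chromosome 11 from 5520659 to 5525893) stood at 132 to 159 CPM in XWT and 76.5 to 79.4 CPM in XKO, where CPM are counts scaled to library size and by TMM, a factor set from most genes, and this count includes reads outside any deleted part. Spread was wider within XWT: the median SD of log2 CPM over the members was 0.137 within XWT and 0.0533 within XKO, against 0.152 and 0.0753 over all tested genes. On the leading principal component, with 61.4% of the variance, the scores were -36.9, -38.6 and -18.2 for XWT 1 to 3, so XWT 3 stood apart, and 29.2 to 33.8 for XKO. The 14 macrophage markers summed to 49609 to 58630 CPM in XWT and 34297 to 36577 CPM in XKO, with 5 lower and 9 not called, and had most reads in Lyz2 (31140 CPM in XWT and 14274 in XKO) and Adgre1 (6614 and 5750 CPM). The summed level of 13 stromal markers was 692 to 800 CPM in XWT and 67.2 to 81.8 CPM in XKO, with all 10 tested markers lower in XKO, with most reads in Col1a1 (277 and 27.5 CPM) and Col1a2 (188 and 18.2 CPM); none was at 0 in all libraries. The 12 neutrophil markers summed to 69.4 to 82.4 CPM in XWT and 98.7 to 105.9 CPM in XKO, with 7 of 9 tested higher, with most reads in Mmp9 (40.7 and 38.2 CPM) and Lcn2 (13.4 and 25.7 CPM), and Ly6g at 0. Of the hepatocyte markers 10 were in the table and 9 of these had no read in any library, Alb, Apob and Hnf4a among them, and Apoa2 was at 0.51 CPM in XWT and 0.30 CPM in XKO. Of 6 lymphocyte markers, summing to 0.037 to 0.416 CPM in XWT and 0.325 to 0.392 CPM in XKO, most reads were in Cd79a (0.15 CPM in XWT and 0.14 CPM in XKO) and Ms4a1 (0.023 and 0.19 CPM), with Cd3e and Ncr1 at 0. The 12 cell cycle genes summed to 727 to 733 CPM in XWT and 636 to 737 CPM in XKO, 2 of them, Cdk1 and Plk1, were lower, and those with most reads, Top2a (173 and 171 CPM) and Mki67 (162 and 156 CPM), were not called. What part these other cell types, the cell cycle or XWT 3 had in the results was not tested, and in bulk RNA fewer cells of a type and less RNA per cell cannot be told apart.

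A small part of the pathway was higher in XKO. Of the 27 members 6 rose, namely Hmgcs1, Idi1, Fdps, Lss, Hsd17b7 and Insig1, 1 fell, namely Scap, and 20 were not called (edgeR quasi-likelihood test, Benjamini-Hochberg adjusted p under 0.05 over 14333 tested genes). The share that rose was 22.2% of the members against 6.00% of all tested genes, and the share that fell was 3.70% against 7.99%, with 14.0% of all genes called in either direction. The difference between these shares was not tested, since the members were chosen with earlier results known. The changes were small. The median log2 fold change of XKO over XWT was 0.09 over the members and 0.00 over all tested genes, and 19 of the 27 members had a fitted change above 0 against 50.2% of all genes. The groups did not overlap for 11 members, or 40.7%, against 36.2% of all genes: 9 were higher in XKO (33.3% against 17.5%) and 2 lower (7.41% against 18.6%). Summed over the members, the level was 1791, 1758 and 1665 CPM in XWT 1 to 3 and 1826, 1838 and 1849 CPM in XKO 1 to 3, a ratio of group means of 1.06. As a share of all counts, without any scaling between libraries, the members took 0.168% to 0.170% in XWT and 0.188% to 0.189% in XKO. With library size alone in place of TMM, 1158 genes were higher and 749 lower against 860 and 1145, and of the members 9 were higher and 0 lower. On that scale the groups did not overlap for 15 members higher in XKO and 1 lower, against 9 and 2 with TMM. The share of all genes with separate groups was not computed on that scale. The median log2 fold change of all genes was 0.07 there, so the 15 and 1 have no share of all genes to be read against.

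The number of calls changed with the libraries kept. The 6 higher members became 5, 4 and 7 without XWT 1, 2 and 3 in turn, 2 without XKO 1, and 1 without XKO 2 or without XKO 3. The 1 lower member became 4 without XWT 3 and 0 without any other single library. The groups of each called member did not overlap, so leaving out 1 XKO library could hardly reverse the direction of its fitted change. None reversed. Without XKO 1, 2 and 3 in turn the log2 fold change of Insig1 was 0.24, 0.23 and 0.23 against 0.24 with all libraries. That of Idi1 was 0.32, 0.36 and 0.31 against 0.33, and that of Scap -0.24, -0.24 and -0.22 against -0.23. Lss moved more, at 0.20, 0.30 and 0.27 against 0.26, as did Hmgcs1, at 0.32, 0.27 and 0.24 against 0.28. Over all genes the share called higher moved too: it was 4.33%, 3.13% and 14.2% without XWT 1, 2 and 3 in turn. Without XKO 1, 2 and 3 in turn it was 2.16%, 1.87% and 2.04%. The share of all genes called lower was 14.8% without XWT 3 and 3.63% to 6.61% without any other single library.

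**Figure D1:**
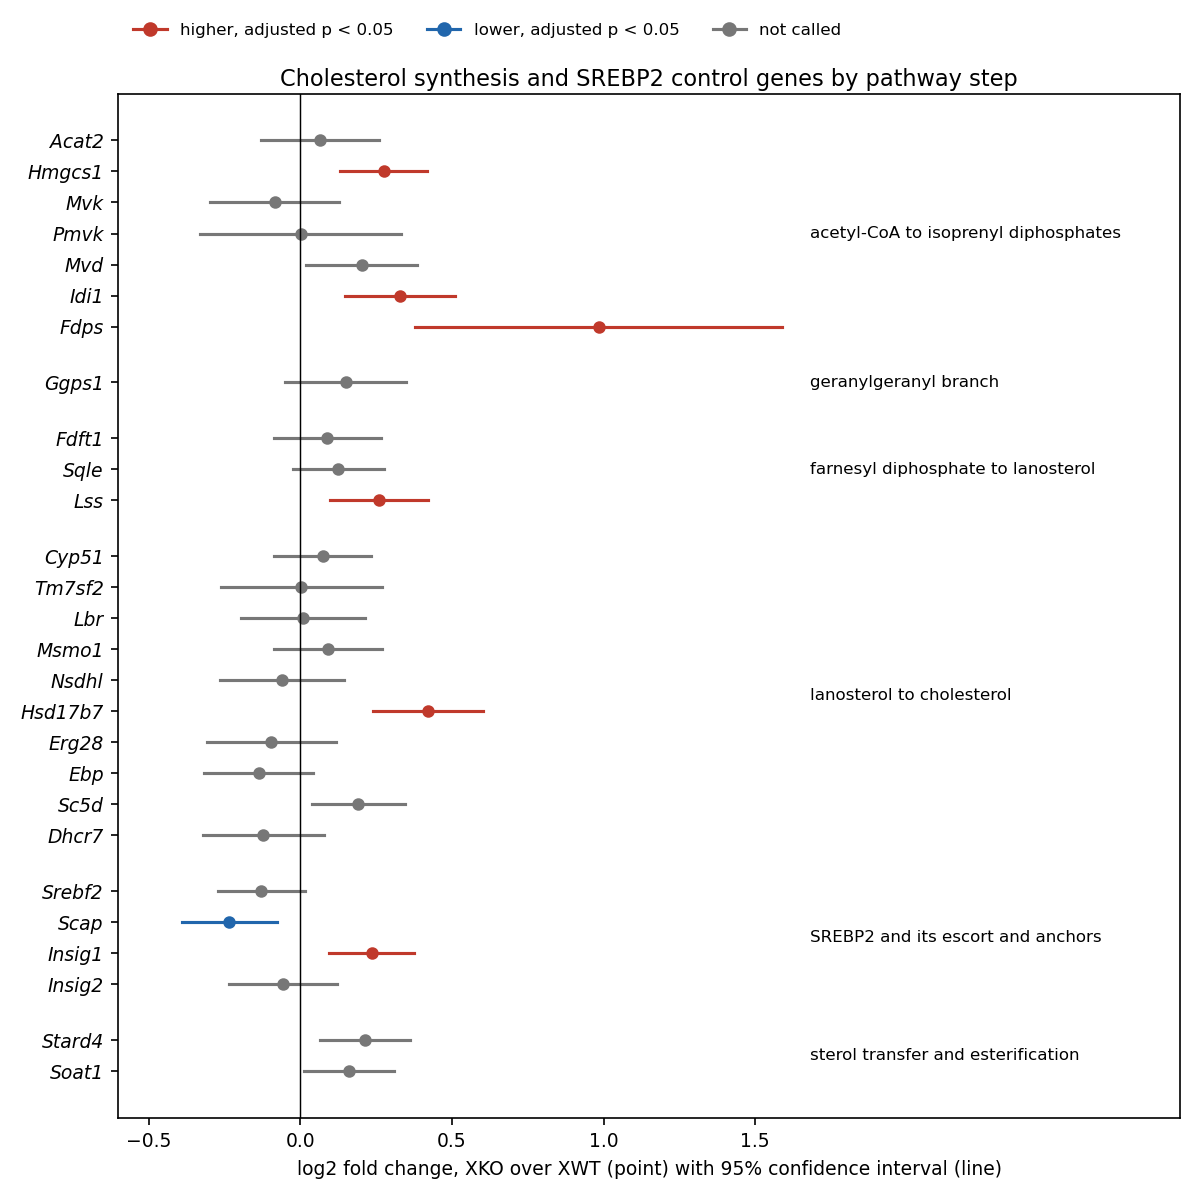
Log2 fold change of XKO over XWT (horizontal axis) for each of the 27 genes in pathway order, with the 95% confidence interval of the edgeR fit as a line; red marks the 6 genes called higher, blue the 1 called lower and grey the 20 not called. Fdps has the widest interval, from 0.38 to 1.59, and the intervals of the uncalled genes lie between -0.33 and 0.38.

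The stretches upstream of the transcription start are shown for 3 of the members that rose and for Scap, which fell, because SREBP2 and XBP1 act through short DNA motifs near the start. The sequences are from RefSeq on GRCm38.p6, whose table holds 29 starts of 23 of the members. They are printed 5′ to 3′ on the strand of the gene, from 250 bases before the start to just before the start or before the gene's first base in the count table, whichever lies further upstream. Capitals mark matches on either strand to the sterol regulatory element form TCACNCCAC, the NF-Y box CCAAT and the core ACGTGG of XBP1 sites.
Hmgcs1 (chr13:119690101-119690350, plus strand): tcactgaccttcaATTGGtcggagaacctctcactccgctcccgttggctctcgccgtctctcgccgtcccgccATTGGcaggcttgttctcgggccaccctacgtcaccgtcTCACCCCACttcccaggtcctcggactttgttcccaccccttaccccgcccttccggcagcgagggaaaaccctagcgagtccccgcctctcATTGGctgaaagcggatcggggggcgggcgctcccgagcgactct
Hsd17b7 (chr1:169969242-169969455, minus strand): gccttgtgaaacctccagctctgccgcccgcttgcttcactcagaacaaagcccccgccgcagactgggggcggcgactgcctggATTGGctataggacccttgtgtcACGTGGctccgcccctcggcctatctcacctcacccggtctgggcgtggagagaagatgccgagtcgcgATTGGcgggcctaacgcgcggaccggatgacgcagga
Insig1 (chr5:28071162-28071362, plus strand): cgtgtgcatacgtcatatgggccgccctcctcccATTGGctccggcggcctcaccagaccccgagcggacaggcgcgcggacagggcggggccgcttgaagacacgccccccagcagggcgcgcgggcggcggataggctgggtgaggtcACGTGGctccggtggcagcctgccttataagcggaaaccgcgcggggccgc
Scap (chr9:110333038-110333287, plus strand): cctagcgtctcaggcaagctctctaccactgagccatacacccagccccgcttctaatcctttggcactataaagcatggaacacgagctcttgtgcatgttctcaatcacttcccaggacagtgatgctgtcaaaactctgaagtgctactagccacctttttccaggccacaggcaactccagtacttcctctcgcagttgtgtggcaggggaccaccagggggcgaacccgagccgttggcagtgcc

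The motifs were counted in windows of 300 bases, 250 before and 50 after the start, on both strands. TCACNCCAC was in 1 of the 29 windows of the members (3.45%), that of Hmgcs1 with its first base at -137, and in 1.24% of all 32851 windows. CCAAT, bound by NF-Y, which is known to act with SREBP2, was in 20 of the 29 windows (69.0%) against 37.4% of all, and GGGCGG, the box bound by Sp1, in 24 (82.8%) against 35.7%. The printed stretches carried CCAAT, read on the strand opposite to the gene, at -237, -176 and -45 in Hmgcs1, at -165 and -73 in Hsd17b7 and at -216 in Insig1, while the windows of Scap held none. ACGTGG was in 4 of the 29 windows (13.8%) against 8.31% of all: those of Hsd17b7 (at -142), Insig1 (at -100), Sc5d and Dhcr7. Of these, Sc5d and Dhcr7 were not called. Idi1 and Lss, which rose and are not printed, had CCAAT but neither ACGTGG nor TCACNCCAC. CCAAT was also in windows of uncalled members, Mvk and Msmo1 among them. The 32851 windows were not limited to the genes tested here, and the differences between the shares were not tested. A match is a match of letters, and its absence says only that these letters are not in the window.

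Of the 7 genes from acetyl-CoA to farnesyl diphosphate 3 rose, while 6.00% of all tested genes did. These were 3 of the 6 rises. Hmgcs1 (ENSMUSG00000093930, chromosome 13 from 119690379 to 119708260, plus strand), the cytosolic HMG-CoA synthase, stood at 71.2, 73.5 and 76.4 CPM in XWT 1 to 3 and 84.0, 90.1 and 93.5 CPM in XKO 1 to 3. Every XKO library was above every XWT library, and the level was 1.21-fold higher, with a log2 fold change of 0.28 ± 0.067 (SE; edgeR adjusted p = 0.0164). The call ended without XKO 2 (adjusted p = 0.0987) and without XKO 3 (adjusted p = 0.112). With trends in gene length and GC content removed, its log2 fold change fell to 0.19 (edgeR adjusted p = 0.0489). A short antisense gene overlaps Hmgcs1 with 27 reads against 14727. Idi1 (ENSMUSG00000058258, chromosome 13 from 8885501 to 8892451, plus strand) encodes the isomerase that turns isopentenyl into dimethylallyl diphosphate. It stood at 23.8, 20.3 and 22.2 CPM in XWT and 28.1, 26.6 and 28.5 CPM in XKO. The groups did not overlap, and the log2 fold change was 0.33 ± 0.084 (SE; edgeR adjusted p = 0.0212) and lost its call without XWT 2 (adjusted p = 0.0587) and without XKO 1, 2 or 3 (0.0976, 0.0668 and 0.104). With length and GC trends removed, the log2 fold change of Idi1 fell to 0.24 (edgeR adjusted p = 0.0390). Its paralog Idi2 had 1 read in all 6 libraries together.

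Fdps (ENSMUSG00000059743, chromosome 3 from 89093588 to 89101959, minus strand), the farnesyl diphosphate synthase, had the largest fitted change and the lowest level per length of the members. It had 1.56, 1.82 and 3.75 CPM in XWT 1 to 3 and 5.25, 4.91 and 4.05 CPM in XKO 1 to 3. XWT 3 lay near the lowest XKO library and far from the other XWT libraries, so the groups were separate by a narrow gap. The log2 fold change was 0.98 ± 0.277 (SE; edgeR adjusted p = 0.0363). Of the 6 fits that leave out a library, the call held only in that without XWT 3, where the change was 1.48 on the log2 scale. Without XWT 1 or 2 it was 0.76 and 0.82, and without XKO 1, 2 or 3 it was 0.90, 0.96 and 1.09, with adjusted p between 0.0685 and 0.138. The counts behind it were 42 to 163 reads per library. The table lists a processed pseudogene of Fdps with 0 counts, and how reads matching more than 1 copy were treated is unknown here, so the level of Fdps is uncertain.

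Of the other enzymes of this stretch none was called. Mvd, the diphosphomevalonate decarboxylase, stood at 37.0, 44.9 and 39.6 CPM in XWT and 50.1, 45.4 and 44.3 CPM in XKO, with XKO 3 below the highest XWT library (log2 fold change 0.20 ± 0.085, SE; edgeR adjusted p = 0.126). It was called higher with trends in gene length and GC content removed (0.32) and without XWT 2 (0.28, adjusted p = 0.0466). Acat2, the cytosolic thiolase that joins acetyl-CoA units, stood at 21.9, 21.5 and 18.4 CPM in XWT and 22.2, 21.04 and 21.4 CPM in XKO, and its paralog Acat3 had 34 reads in all. The mevalonate kinase gene Mvk was at 17.8, 19.6 and 16.3 CPM in XWT and 17.8, 17.3 and 15.5 CPM in XKO. The phosphomevalonate kinase gene Pmvk had the widest spread within XWT after Fdps, at 14.4, 24.3 and 20.1 CPM, while XKO stood at 20.8, 19.3 and 19.0 CPM. The 95% interval of its log2 difference, from -0.33 to 0.33, was correspondingly wide. Ggps1, which makes geranylgeranyl diphosphate for protein prenylation at a branch of the pathway, was at 19.9, 17.0 and 20.4 CPM in XWT and 20.4, 21.6 and 21.6 CPM in XKO (0.15 ± 0.092, SE; edgeR adjusted p = 0.291). It shares 257 bases with Arid4b on the other strand, and since the strand setting of the counting is not known, reads there cannot be told apart.

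**Figure D2:**
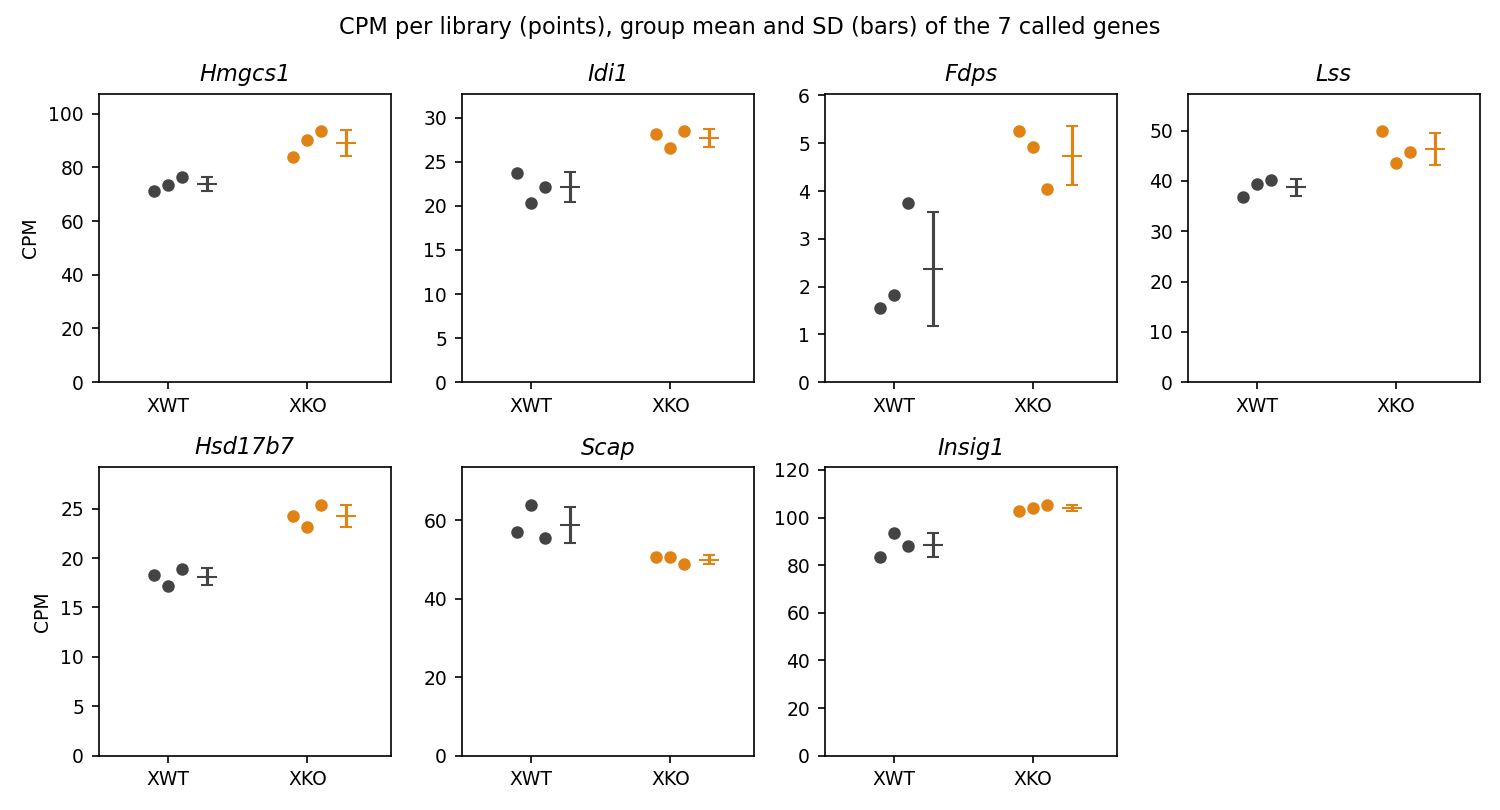
CPM (vertical axis, from 0) of the 7 called genes in each of the 3 XWT and 3 XKO libraries (points), with the group mean and SD (bars). The points of the groups are separate in all 7 panels, and the gap is narrowest for Fdps, where XWT 3 is at 3.75 and XKO 3 at 4.05 CPM.

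From farnesyl diphosphate to lanosterol all 3 genes had fitted changes above 0 and 1 was called higher. Of all tested genes 50.2% had a fitted change above 0 and 6.00% were called higher. Lss (ENSMUSG00000033105, chromosome 10 from 76531588 to 76557138, plus strand), the lanosterol synthase that folds the squalene chain into the sterol rings, stood at 36.8, 39.3 and 40.1 CPM in XWT and 49.9, 43.6 and 45.7 CPM in XKO. The groups did not overlap (log2 fold change 0.26 ± 0.076, SE; edgeR adjusted p = 0.0368). Of the 6 fits that leave out a library, the call held only in that without XWT 3 (adjusted p = 0.0193). It was lost without XWT 1 or 2 (0.0890 and 0.0612), without XKO 1, 2 or 3 (0.207, 0.0814 and 0.115), with length and GC trends removed (adjusted p = 0.0777) and with limma-voom and quality weights (adjusted p = 0.0507). Sqle, the squalene epoxidase and a known control point of the pathway, stood at 80.2, 73.5 and 69.5 CPM in XWT and 80.9, 79.6 and 82.8 CPM in XKO. XWT 1 lay inside the XKO range, and the log2 difference had a 95% interval from -0.02 to 0.27 (edgeR adjusted p = 0.240). Fdft1, the squalene synthase that commits farnesyl diphosphate to sterols, was at 47.5, 40.6 and 39.4 CPM in XWT and 44.2, 44.6 and 46.8 CPM in XKO. XWT 1 was the highest of the 6 libraries. It shares 774 bases with the cathepsin gene Ctsb on the other strand, which had 1672365 reads against 7886 for Fdft1, so its count is uncertain.

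Past lanosterol 1 of 10 genes rose and 9 were not called, with a median log2 fold change of 0.01. Among the 10 enzymes from acetyl-CoA to lanosterol, the geranylgeranyl branch left aside, 4 rose and the median was 0.16. Over all tested genes 6.00% rose. Of these 4 enzymes, Fdps and Lss each kept the call in only 1 of the 6 fits that leave out a library. A difference between these stretches of the pathway was not tested. Hsd17b7 (ENSMUSG00000026675, chromosome 1 from 169949535 to 169969241, minus strand), which reduces the keto group left by removal of the methyl groups at carbon 4, stood at 18.3, 17.2 and 18.9 CPM in XWT and 24.2, 23.2 and 25.4 CPM in XKO. All XKO libraries were well above all XWT libraries. The level was 1.34-fold higher, with a log2 fold change of 0.42 ± 0.084 (SE; edgeR adjusted p = 0.00510), and of the 7 called members only this one was called without each library in turn and with every other setting run at the same threshold. Its upstream stretch, printed with those of Hmgcs1, Insig1 and Scap, is among the 4 with ACGTGG. Sc5d, the sterol C5 desaturase, also had separate groups, at 56.7, 50.2 and 52.4 CPM in XWT and 58.5, 60.3 and 63.1 CPM in XKO, but did not pass the test (log2 fold change 0.19 ± 0.071, SE; edgeR adjusted p = 0.0876). It was called with library size alone (0.26) and without XWT 1 (0.24). With length and GC trends removed, its log2 fold change fell to 0.096 (edgeR adjusted p = 0.284).

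The groups of the other genes that act on the methyl groups of lanosterol overlapped. Cyp51, the lanosterol demethylase, stood at 97.2, 91.2 and 80.6 CPM in XWT and 92.6, 94.1 and 96.3 CPM in XKO, and shares 166 bases with Akap9 on the other strand. Msmo1, the methylsterol oxidase, stood at 126, 108 and 98.0 CPM in XWT and 116, 118 and 120 CPM in XKO. In both genes XWT 1 was the highest and XWT 3 the lowest of the 6 libraries, and the same held for Erg28, the scaffold protein of the demethylating enzymes (29.5, 26.1 and 22.5 CPM in XWT, 24.2, 25.5 and 23.3 CPM in XKO). Nsdhl, the sterol dehydrogenase that acts between Msmo1 and Hsd17b7, was at 29.5, 27.8 and 24.3 CPM in XWT and 23.7, 26.1 and 28.4 CPM in XKO. Hsd17b7 was therefore the only called gene of the 4 whose products take the methyl groups off carbon 4 or hold that complex together.

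Ebp, the sterol isomerase, and Dhcr7, the reductase that ends one route to cholesterol, had fitted changes below 0. Ebp stood at 45.2, 46.1 and 38.2 CPM in XWT and 38.0, 38.6 and 41.0 CPM in XKO, and Dhcr7 at 47.5, 42.9 and 36.0 CPM in XWT and 38.3, 38.4 and 39.4 CPM in XKO. For each, XWT 3 lay below XWT 1 and XWT 2 and beside the XKO libraries. Neither was called with all libraries (edgeR adjusted p = 0.284 and 0.400), and without XWT 3 both were called lower, at -0.22 on the log2 scale (adjusted p = 0.0321 and 0.0351). In that fit 14.8% of all genes were called lower. The reductases that act on the double bond at carbon 14 are encoded by Tm7sf2 and by Lbr, the latter also a receptor for lamins in the nuclear envelope. Tm7sf2 stood at 9.87, 13.9 and 12.5 CPM in XWT and 11.7, 12.2 and 12.5 CPM in XKO, and Lbr at 29.8, 39.2 and 37.3 CPM in XWT and 36.2, 35.4 and 35.3 CPM in XKO. XWT 1 was the lowest library for both. Per length, the level of Tm7sf2 was 0.282 to 0.302 times that of Lbr in XWT and 0.274 to 0.302 times in XKO (ratio of FPKM, which are fragments scaled to gene length and library size). Tm7sf2 overlaps Vps51 on the same strand over 9356 bases, so its level is uncertain.

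**Figure D3:**
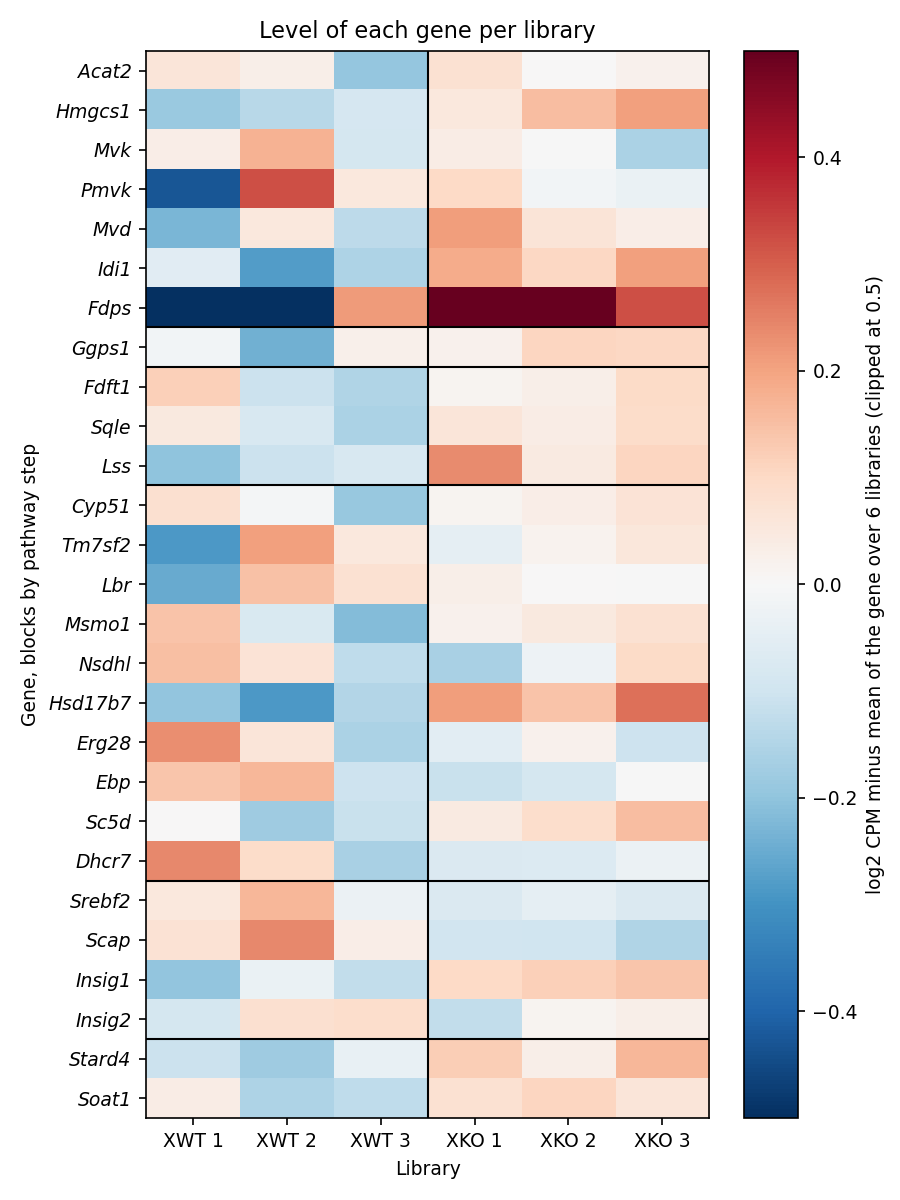
Log2 CPM of each gene in each library minus the gene's mean over the 6 libraries (colour, red above and blue below the mean, clipped at 0.5); rows are genes in blocks by pathway step and columns are libraries. Between 19 and 20 of the 27 genes are above their mean in each XKO library, against 14, 13 and 7 in XWT 1 to 3.

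The control genes moved in different directions. Insig1 (ENSMUSG00000045294, chromosome 5 from 28071363 to 28078662, plus strand), the anchor of SCAP that is itself an SREBP2 target, stood at 83.5, 93.6 and 88.0 CPM in XWT and 103, 104 and 105 CPM in XKO. The XKO libraries were close together and above all XWT libraries (log2 fold change 0.24 ± 0.065, SE; edgeR adjusted p = 0.0301), and the call ended without XWT 1 (adjusted p = 0.0688) and without XKO 1, 2 or 3 (0.112, 0.139 and 0.137). With length and GC trends removed, the log2 fold change of Insig1 was 0.26 (edgeR adjusted p = 0.00689). Insig2, the anchor that does not depend on SREBP2, stood at 27.1, 30.4 and 30.6 CPM in XWT and 26.4, 29.0 and 29.3 CPM in XKO, with a 95% interval of the log2 difference from -0.23 to 0.12. Per length, Insig1 stood at 3.23 to 3.46 times the level of Insig2 in XWT and 4.03 to 4.37 times in XKO (ratio of FPKM).

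Scap (ENSMUSG00000032485, chromosome 9 from 110333288 to 110384950, plus strand) was the 1 member that fell. It stood at 56.9, 63.9 and 55.4 CPM in XWT and 50.6, 50.5 and 48.7 CPM in XKO. The groups did not overlap, and the log2 fold change was -0.23 ± 0.073 (SE; edgeR adjusted p = 0.0483). The call was at the edge of the threshold: it ended with library size in place of TMM scaling (-0.16, adjusted p = 0.136) and with a filter at 1 CPM (adjusted p = 0.0517). Of the 6 fits that leave out a library it held only in that without XWT 3 (-0.28, adjusted p = 0.0135), and the adjusted p was 0.0554 and 0.108 without XWT 1 and 2 and 0.148, 0.160 and 0.187 without XKO 1, 2 and 3. Srebf2, the gene of SREBP2, had the highest level per length of all members in XWT, and its libraries stood at 294, 317 and 277 CPM in XWT and 269, 274 and 269 CPM in XKO. All XKO libraries were below all XWT libraries, yet the difference did not pass the test (log2 fold change -0.13, 95% interval from -0.27 to 0.02; edgeR adjusted p = 0.215). It was called without XWT 3, at -0.17 (adjusted p = 0.0346), in a fit that called 14.8% of all genes lower. The separation of the Srebf2 groups depended on TMM scaling: per library size alone, XKO 2 lay above XWT 1 and XWT 3, while the Scap groups stayed separate.

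The remaining members handle finished sterol. Stard4, a soluble protein that carries cholesterol between membranes, stood at 61.1, 58.0 and 64.1 CPM in XWT and 71.6, 67.1 and 73.8 CPM in XKO. Its groups were separate and its p was just past the threshold (log2 fold change 0.21 ± 0.069, SE; edgeR adjusted p = 0.0556), and it was called higher with library size alone (adjusted p = 0.0267), with a filter at 1 CPM (0.0487) and without XWT 3 (0.0161). Soat1, which esterifies cholesterol for storage in lipid droplets and is the main such enzyme of macrophages, stood at 408, 356 and 363 CPM in XWT and 419, 428 and 415 CPM in XKO. XWT 1 came close to the XKO libraries without reaching them, and the log2 fold change of 0.16 ± 0.069 (SE) was not called (edgeR adjusted p = 0.129) except with library size alone (0.23) and without XWT 1 (0.22). With length and GC trends removed, the log2 fold change fell to 0.037 for Soat1 and 0.13 for Stard4 (edgeR adjusted p = 0.719 and 0.134).

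**Figure D4:**
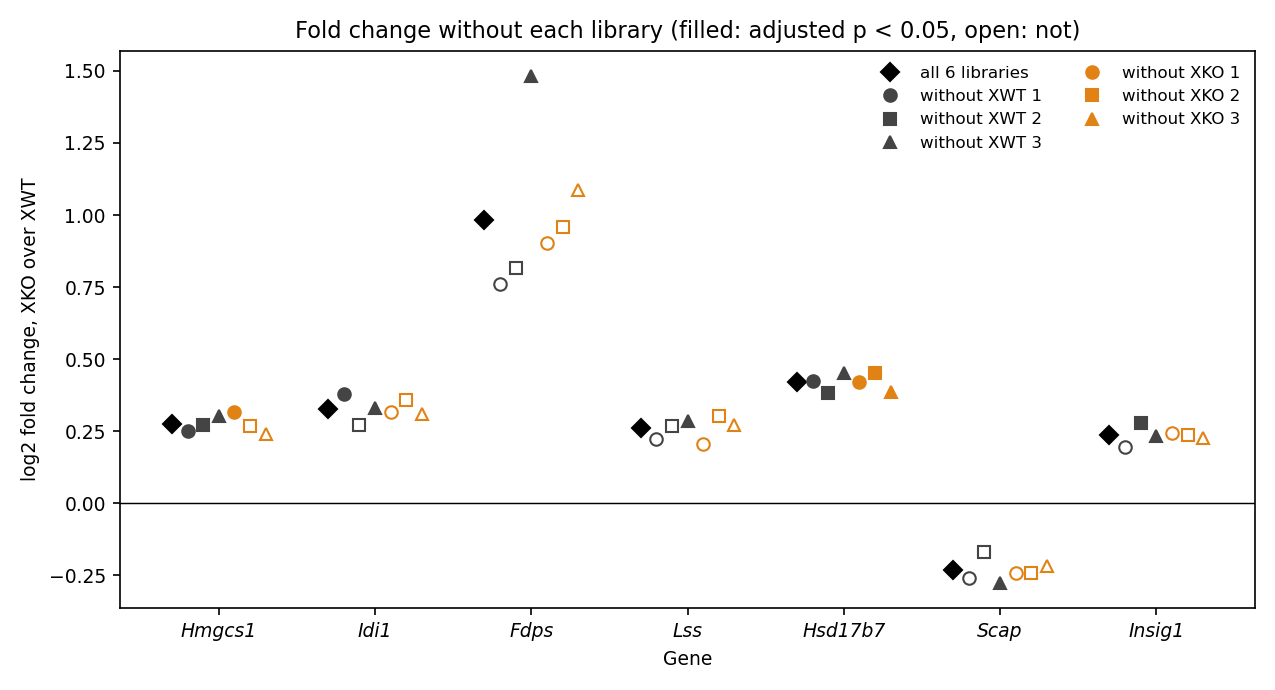
Log2 fold change of XKO over XWT (vertical axis) of the 7 called genes with all 6 libraries (diamond) and without each library in turn; filled symbols have an adjusted p under 0.05 and open symbols do not. Hsd17b7 is filled throughout, and Fdps moves most, from 0.76 without XWT 1 to 1.48 without XWT 3. All symbols of a gene lie on the same side of 0, which groups that do not overlap make nearly certain.

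Levels per length ordered the members over a wide range. In XWT the highest were Srebf2 at 41.1 ± 3.01 FPKM, Soat1 at 38.3 ± 2.91 FPKM and Insig1 at 28.5 ± 1.70 FPKM (SD, n = 3 each), and the lowest were Hsd17b7 at 3.54 ± 0.155, Tm7sf2 at 2.16 ± 0.367 and Fdps at 0.562 ± 0.279 FPKM (SD, n = 3 each). Srebf2 and Soat1 did not differ beyond their spread in XWT, whereas in XKO Soat1, at 42.7 ± 0.707 FPKM, stood above Srebf2, at 37.5 ± 0.374 FPKM (SD, n = 3 each). Among the enzymes Mvd (21.8 ± 2.22 FPKM in XWT) and Cyp51 (20.3 ± 1.99) led, followed by Ebp (18.6 ± 1.98), Msmo1 (18.0 ± 2.34) and Hmgcs1 (16.0 ± 0.495; SD, n = 3 each), each within the spread of its neighbour. In the middle of the order, from Sqle at 13.4 FPKM to Erg28 at 6.14 FPKM, lay 14 members, followed by Ggps1 at 4.04 and Lss at 3.58 FPKM, the latter within its spread of Hsd17b7. Idi1 moved from rank 21 in XWT to 17 in XKO, and Scap from 17 to 19. The uncalled Pmvk and Ebp moved as far as Scap, from 10 to 12 and from 6 to 8.

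**Figure D5:**
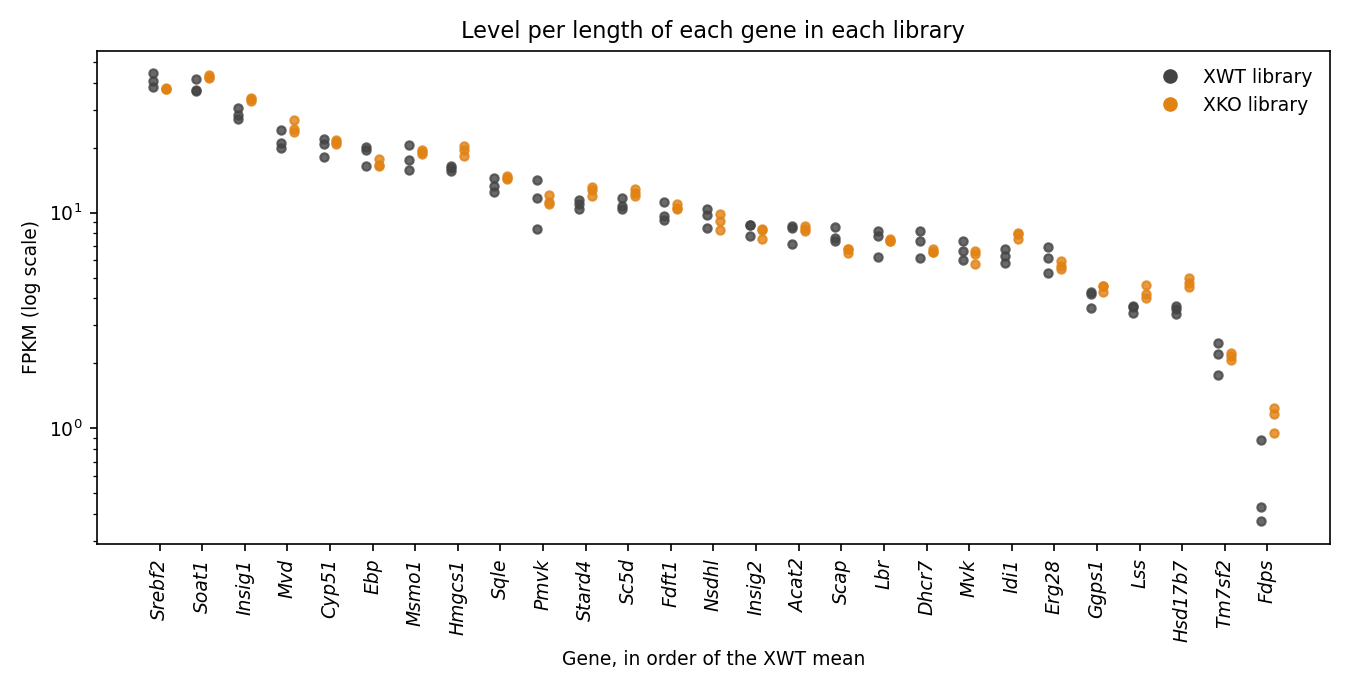
FPKM (vertical axis, log scale) of each gene in each library, in order of the XWT mean; dark points are XWT libraries and orange points XKO libraries. Srebf2, Soat1 and Insig1 stand highest and Fdps lowest, at 0.562 FPKM on average in XWT.

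Around the pathway 55 further genes of sterol and isoprenoid metabolism were in the table, of which 51 were tested, 3 rose and 1 fell, while 6.00% and 7.99% of all tested genes did; the median log2 fold change was -0.02. Of 8 genes of acetyl-CoA supply and of the electron donors of the sterol enzymes, 1 rose and the others were not called. Acss2, the cytosolic acetyl-CoA synthetase and a known SREBP target, stood at 24.2, 24.5 and 24.3 CPM in XWT and 37.5, 35.4 and 35.9 CPM in XKO. The groups were far apart, with a log2 fold change of 0.57 ± 0.073 (SE; edgeR adjusted p = 0.000142), and the call held without each library in turn. Acss2 shares 22544 bases, introns included, with Gss on the other strand, and reads there cannot be told apart.

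Of 12 genes of sterol ester hydrolysis, lysosomal egress and sterol transfer, 11 were tested, 1 rose and the others were not called. Soat2, the esterifying enzyme better known from liver and intestine, had 22, 24 and 44 reads in XWT 1 to 3 and 136, 120 and 124 reads in XKO 1 to 3, or 0.816, 0.808 and 1.41 CPM and 4.38, 3.90 and 4.05 CPM. It stood 4.02-fold higher in XKO (log2 fold change 2.01 ± 0.234, SE; edgeR adjusted p = 6.57e-05), called without each library in turn. Per length it stayed far under its paralog Soat1, at 0.455 ± 0.152 FPKM in XWT and 1.85 ± 0.111 FPKM in XKO against 38.3 ± 2.91 and 42.7 ± 0.707 FPKM (SD, n = 3 each).

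Of 15 genes that use isoprenyl diphosphates 1 rose and the others were not called. Nus1, a subunit of the enzyme that makes dolichol for protein glycosylation, stood at 105, 100.1 and 111 CPM in XWT and 123, 123 and 120 CPM in XKO (log2 fold change 0.21 ± 0.064, SE; edgeR adjusted p = 0.0429), and of the 6 fits that leave out a library the call held only in that without XWT 3, with adjusted p between 0.0703 and 0.186 in the others. The call also ended with no filter on low counts (adjusted p = 0.0549) and with length and GC trends removed, where the log2 fold change was 0.11 (adjusted p = 0.173). Of 6 oxysterol genes 3 were tested and 1 fell. Cyp27a1, the mitochondrial sterol hydroxylase, stood at 49.99, 49.9 and 52.5 CPM in XWT and 41.5, 41.7 and 42.0 CPM in XKO (log2 fold change -0.28 ± 0.066, SE; edgeR adjusted p = 0.0133), with the call lost without XKO 1, 2 or 3 (adjusted p = 0.0793, 0.0861 and 0.0676), with library size alone (0.0574) and with length and GC trends removed (0.0679). Ch25h, which makes an oxysterol that blocks SREBP2 processing, had 7 to 12 reads in each library and was not called. Of 14 genes of SREBP processing and sterol-regulated degradation 0 were called with edgeR, 2 had an unadjusted p under 0.05, against 30.8% of all tested genes, and DESeq2 and limma-voom each called 1. Without XWT 3 edgeR called 3, all lower, where it called 14.8% of all genes lower and 14.2% higher. Among them Mbtps1, the protease that makes the leading cut in SREBP2, stood at 112 ± 4.74 CPM in XWT and 102 ± 1.39 CPM in XKO (SD, n = 3 each; edgeR adjusted p = 0.159).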

How the data were processed

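RNA sequencing libraries, 3 XWT and 3 XKO by their titles, were analysed. The authors deposited 1 table of raw counts and FPKM per Ensembl gene, per the file headers, and those FPKM imply totals of 0.997 to 1.01 times the TMM-scaled totals. The authors' deposited table also gives group means as a signal, a log2 fold change and p-values, raw and adjusted; it has 6 of the members higher and 1 lower at an adjusted p under 0.05. Bowtie 0.12.2, mm8 and mm10 are named in the submitters' processing notes; how reads were counted, and with what strand setting, is unknown here. Coordinates are those of the deposited table, and 26 of the 27 members have the same ones in GENCODE M21 (GRCm38).

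Counts were tested with edgeR 4.0.16 (R 4.3.3). The 14333 of 54532 genes kept by filterByExpr entered a TMM-scaled, robust quasi-likelihood fit of XKO against XWT with 4 residual degrees of freedom, and p-values were adjusted over all of them by Benjamini-Hochberg. Each SE is the size of the log2 fold change over the root of its F statistic, and 95% intervals use the fit's degrees of freedom. FPKM served only for levels between genes. The members and lists were chosen with earlier results of these data known. All members are named, with up to 4 called genes of each neighbouring list (2 of smallest p where none was called) and the 2 of each marker list with most reads; Tf was not matched in the table. A gene that this rule would name is not reported here. The script was tested on simulated data. Alternatives were other scalings, filters and thresholds, DESeq2 1.42.0, limma-voom 3.58.1 with quality weights, a replicate block, removal of length and GC trends, and leaving out each library.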

Additional observations from a re-analysis of the deposited data

How the results depend on the processing

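Over all tested genes 860 were higher and 1145 lower. Leaving out single libraries gave 274 to 2073 higher and 532 to 2164 lower, an adjusted p under 0.01 gave 262 and 544, an adjusted p under 0.10 gave 1452 higher, and library size alone gave 1158 higher and 749 lower. The 6 higher members ranged from 1 to 7 over the libraries left out and were 1 at an adjusted p under 0.01. The 1 lower member ranged from 0 to 4 over the libraries left out, and it was 0 with library size alone, with a filter at 1 CPM, with the replicate block and at an adjusted p under 0.01. The members' median log2 fold change, 0.09, was 0.037 to 0.14 over the libraries left out, 0.16 with library size alone, where the median of all genes moved to 0.07, and 0.047 with length and GC trends removed. Among the neighbouring sterol and isoprenoid genes the 3 higher ranged from 2 to 5 over the libraries left out and were 5 with library size alone. The 1 lower ranged from 0 to 9 over the libraries left out. It was 0 with library size alone and at an adjusted p under 0.01, 2 with DESeq2, the replicate block or length and GC trends removed, 3 without a filter and at an adjusted p under 0.10, and 4 with voom and quality weights. The cause of these shifts was not tested.

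Over the single members, 382 of the alternative fits kept the direction and side of the threshold or stayed uncalled, 36 lost a call in the same direction and 14 gained one. Of the 7 called members only Hsd17b7 was called in all alternatives. Replicate numbers did not pair the libraries: the deviations of same-numbered libraries from their group means correlated at -0.04, -0.04 and -0.05, and no library correlated best with its own number. With the replicate number as a block 6 of the members were called against 7, Scap being the one lost, and Nus1 was not called (adjusted p = 0.0639). Counting error is larger for Fdps and Soat2, with as few as 42 and 22 reads in a library, than for the other named genes that were called. Fdps also had a wide spread within XWT, with an SD of log2 CPM of 0.657.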

Other observations

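Hsd17b7 and Insig1, both higher in XKO, shared a stretch of 14 bases around the ACGTGG core of their upstream windows. It reads gtcACGTGGctccg, and it was in 5 of 32851 windows of RefSeq starts (0.0152%), each of a different gene. The stretch was taken from the windows of Hsd17b7 and Insig1, which are among the 5, so the share is no test. It was noticed after the windows were seen, and it is a match of letters only.

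On the FPKM scale the ratio of Insig1 to Scap was 3.53, 3.52 and 3.82 in the XWT libraries, numbered 1 to 3, and 4.88, 4.95 and 5.21 in those of XKO. The ratio of Srebf2 to Scap was 5.35, 5.14 and 5.18 in the XWT libraries and 5.51, 5.61 and 5.72 in those of XKO. The ratio of Insig1 to Scap sets a gene that rose over one that fell, and it was chosen after their values were seen.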
